A study of Homo sapiens with 6 samples.

Results

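The tropomyosin genes TPM1, TPM2, TPM3 and TPM4, the tropomodulin genes TMOD1, TMOD2 and TMOD3 and the leiomodin gene LMOD1 were followed in SW480 cells after knockdown of ZEB1. These 8 genes, of the 32029 in the count data, were found by gene symbol. The family was selected on these same data because TPM4 rose more than 3-fold after the knockdown. Comparisons of the members between the groups are therefore given as descriptions, without p-values. SW480 is a human colorectal adenocarcinoma cell line. Cells were transfected with negative control siRNA (labelled siNC and called siControl here, n = 3) or siRNA against the transcription factor ZEB1 (siZEB1, n = 3). Total RNA was collected after 48 h. The cells of both groups were recorded as wild type, and all libraries came from 1 cell line. The study's methods call the replicates biological, but neither they nor the labels tie a replicate to a day or a passage.

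Tropomyosins are coiled-coil proteins that lie head to tail along the actin filament and set which myosins, severing factors and crosslinkers can reach it. Each of the 4 mammalian tropomyosin genes makes several isoforms through alternative promoters and exons, long ones that are typical of muscle and stress fibres and short ones that are found in most other cells. Tropomodulins bind the slow-growing (pointed) end of tropomyosin-coated filaments and cap it, whereas leiomodins, their relatives in muscle, start new filaments. ZEB1 represses epithelial genes by binding E-boxes, above all the sequences CAGGTG and CAGGTA.

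TPM4 was 3.29-fold higher with siZEB1. TPM1, TPM2 and TPM3, its paralogs, and TMOD3, the main tropomodulin of these cells, had fold changes between 0.998 and 1.09. TMOD1, TMOD2 and LMOD1 were below 3 CPM (reads relative to the size of the library) in every library. TPM4 thereby moved from the third to the first place among the members by level per kilobase, and its share of all tropomyosin transcripts went from 16.8% to 39.5%.

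The genes lie apart in the genome (GRCh38, GENCODE 29), with 1 neighbouring pair. TPM4 is on chromosome 19 (16067021 to 16103005, plus strand), TPM1 on chromosome 15 (63042632 to 63071915, plus strand), TPM2 on chromosome 9 (35681992 to 35690121, minus strand) and TPM3 on chromosome 1 (154155304 to 154194648, minus strand). TMOD2 (51751561 to 51816368) and TMOD3 (51829628 to 51947295) follow each other on the plus strand of chromosome 15. TMOD1 is on chromosome 9 (97501180 to 97601748, plus strand) and LMOD1 on chromosome 1 (201896452 to 201946588, minus strand). The annotation gives TPM4 24 transcripts from 23 start positions, against 34 from 31 for TPM1, 23 from 22 for TPM3 and 12 from 9 for TPM2. Among the complete coding transcripts of TPM4, 2 encode a long protein of 284 residues and 2 a short one of 248 residues. All 6 complete coding transcripts of TPM2 encode 284 residues. One count per gene was deposited, so long and short isoforms could not be told apart.

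The bases before the first and last RefSeq starts of TPM4 are shown because it is the member that moved. Those before the middle start, of which 189 of 250 are exonic, are not printed. The bases of TPM1 and TMOD2 are shown because they hold ZEB1-type E-boxes. Sequences are from RefSeq (GRCh38.p14), on the plus strand as each gene reads, with bases that the annotation counts as exonic left out. Windows of 300 bases, 250 before and 50 after each start, were searched for CAGGTG and CAGGTA on both strands (read as CACCTG and TACCTG on the other) and for the CArG box, the binding sequence of the serum response factor SRF. Capitals mark the matches.
TPM4, start 1, chr19:16067307-16067506: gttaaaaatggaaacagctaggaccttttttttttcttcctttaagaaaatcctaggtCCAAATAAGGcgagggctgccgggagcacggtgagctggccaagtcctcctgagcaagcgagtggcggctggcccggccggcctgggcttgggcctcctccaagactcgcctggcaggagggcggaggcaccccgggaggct
TPM4, start 3, chr19:16076766-16077015: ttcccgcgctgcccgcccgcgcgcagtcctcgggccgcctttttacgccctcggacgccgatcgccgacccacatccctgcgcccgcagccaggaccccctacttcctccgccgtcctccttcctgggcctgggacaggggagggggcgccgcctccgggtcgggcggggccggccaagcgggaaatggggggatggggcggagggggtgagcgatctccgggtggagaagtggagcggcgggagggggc
TPM1, chr15:63048239-63048438: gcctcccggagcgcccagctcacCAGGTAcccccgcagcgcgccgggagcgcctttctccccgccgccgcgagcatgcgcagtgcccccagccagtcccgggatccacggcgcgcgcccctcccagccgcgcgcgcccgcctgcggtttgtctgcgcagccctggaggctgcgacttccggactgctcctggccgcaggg
TMOD2, chr15:51751347-51751560: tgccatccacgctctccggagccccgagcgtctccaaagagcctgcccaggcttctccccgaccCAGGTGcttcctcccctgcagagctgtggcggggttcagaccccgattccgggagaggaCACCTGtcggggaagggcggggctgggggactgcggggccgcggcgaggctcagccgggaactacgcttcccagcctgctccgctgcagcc

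TPM4 has 3 start sites in RefSeq, and neither E-box sequence was found in any of the 3 windows. The first of them holds a CArG box, CCAAATAAGG, whose first base lies 173 bases before the start (position -173), and 1.29% of the 35116 windows of all genes hold a CArG box. TPM1 has CAGGTA at -227, and 9.83% of all windows hold that sequence. TMOD2 has CAGGTG at -186 and its reverse complement CACCTG at -127, and TMOD1 has CACCTG 39 bases after its start, against 20.6% of all windows with CAGGTG on either strand. The windows of TPM2, TPM3, TMOD3 and LMOD1 hold none of the 3 motifs. Windows were taken at RefSeq starts only, which are fewer than the annotated starts counted above and differ in number between members. Counted by gene, 24.1% of 27305 genes hold CAGGTG in any window, 11.8% CAGGTA and 1.6% a CArG box. A match of letters is a description of the sequence and does not show binding.

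The 6 libraries held between 19040636 and 22357633 counted reads. ZEB1 fell from 54.2 ± 6.23 to 7.499 ± 0.841 CPM (scaled by the TMM method of edgeR, mean ± SD, n = 3). Its log2 fold change was -2.85 with SE 0.11 and adjusted p = 4.85e-12 by edgeR's quasi-likelihood test. Of 14996 genes tested, 2849 were higher and 3186 lower with siZEB1 at an adjusted p under 0.05, or 40.2% in all. Of the colorectal epithelial markers, KRT8 and KRT18 were high in both groups (3450 and 1416 CPM on average with siControl), whereas LGALS4 and CDH17 were under 0.5 CPM. CDX1 was not found by symbol in the count data. Muscle and fibroblast markers summed to 18.9 to 22.8 CPM and blood and vessel markers to 1.62 to 2.99 CPM over all 6 libraries. Of 4 muscle and fibroblast markers tested, PDGFRB was higher (log2 fold change 0.42, adjusted p = 0.0281 by edgeR) and DES lower (-0.41, adjusted p = 0.0392 by edgeR), and both lost the call under 6 of 12 alternatives (adjusted p up to 0.0979 and 0.139 by edgeR). In bulk RNA, fewer cells that express a gene and less RNA per cell cannot be told apart.

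TPM4, the tropomyosin gene whose main non-muscle product is a short isoform of stress fibres and the cell cortex, was counted with 4158, 4399 and 3737 reads in the siControl libraries and with 12206, 12413 and 12124 reads in the siZEB1 libraries. Scaled for library size, the siControl values were 195.3, 196.1 and 193.6 CPM and the siZEB1 values 645.6, 644.6 and 632.4 CPM. The groups did not overlap, and the lowest siZEB1 library was more than 3 times the highest siControl library. The mean went from 195 ± 1.31 to 641 ± 7.33 CPM, with a log2 fold change of 1.72 (SE 0.05, 95% interval 1.61 to 1.83). TPM4 was the one member above the 3-fold limit used to choose the family, and the next highest, TPM1, stood at 1.09-fold. Ordered by rise, TPM4 was at place 94 of the 14996 genes tested and at place 4 of the 2604 genes with a mean of at least 100 CPM in either group. The 3 abundant genes above it, named after their values were seen, were EPCAM, an epithelial adhesion molecule (log2 fold change 3.05), SYK, a tyrosine kinase (1.87), and NOLC1, a nucleolar phosphoprotein (1.76).

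**Figure D1:**
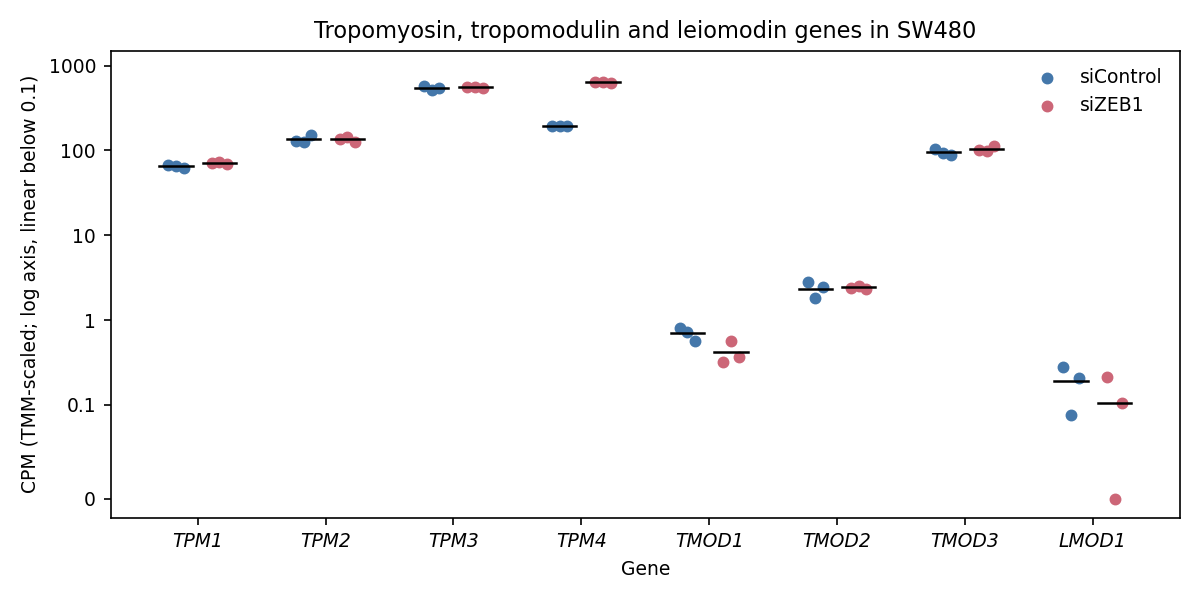
Level of each member in each library, in CPM after TMM scaling, on an axis that is logarithmic above 0.1 CPM and linear below it. Points are libraries (3 siControl, 3 siZEB1) and bars are group means. TPM4 goes from 195 to 641 CPM, the siControl and siZEB1 points of TPM2 and of TPM3 overlap, and LMOD1 stays below 0.3 CPM.

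TPM1, which makes both long muscle-type and short isoforms, was counted with 1420, 1475 and 1199 reads in siControl libraries against 1335, 1405 and 1327 in siZEB1 libraries. In CPM these were 66.7, 65.8 and 62.1 against 70.6, 73.0 and 69.2. The groups did not overlap, but the shift was small, with a log2 fold change of 0.13 (SE 0.07, 95% interval -0.01 to 0.27). TPM1 and TPM4 were the 2 of 7 members tested whose groups were apart, and 49.5% of all genes tested had groups that did not overlap.

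TPM2, known for its long isoform in muscle and stress fibres, gave 2752, 2857 and 2926 siControl reads and 2566, 2812 and 2403 siZEB1 reads. These were 129, 127 and 152 CPM against 136, 146 and 125 CPM. The third siControl library was the highest and the third siZEB1 library the lowest, and the ranges crossed. The log2 fold change was -0.0032 (SE 0.08, 95% interval -0.16 to 0.16).

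TPM3, the source of short isoforms in most cells, had the most siControl reads of the family, 12118, 11732 and 10664 per library, and 10668, 10751 and 10562 siZEB1 reads. Its levels of 569, 523 and 552 CPM with siControl enclosed those of 564, 558 and 551 CPM with siZEB1. The log2 fold change was 0.03 (SE 0.05) with a 95% interval of -0.08 to 0.14. In reads, TPM3 was thus above TPM4 in each siControl library and below it in each siZEB1 library.

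TMOD3, the widely expressed tropomodulin, gave 2216, 2110 and 1693 siControl reads and 1897, 1881 and 2160 siZEB1 reads. Its siControl levels were 104, 94.1 and 87.7 CPM and its siZEB1 levels 100.3, 97.7 and 113 CPM. The ranges crossed, and the log2 fold change was 0.12 (SE 0.08, 95% interval -0.04 to 0.28). TMOD3 made up 95.9% ± 0.319 of the tropomodulin level per kilobase with siControl and 96.8% ± 0.606 with siZEB1.

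TMOD2, the tropomodulin of neurons, had between 41 and 59 reads in every library, with 2.34 ± 0.478 CPM for siControl and 2.42 ± 0.106 CPM for siZEB1. Its log2 fold change of 0.05 (SE 0.21) has a 95% interval of -0.39 to 0.49, about 4 times as wide as that of TPM4. TMOD1, the tropomodulin of red cells and striated muscle, gave 17, 16 and 11 siControl reads and 6, 11 and 7 siZEB1 reads. In CPM these were 0.798, 0.713 and 0.570 against 0.317, 0.571 and 0.365, so that the highest siZEB1 library just passed the lowest siControl library. The log2 fold change of -0.73 (SE 0.40) has a 95% interval of -1.57 to 0.11. TMOD1 passed the filter on low counts through its siControl libraries, of which 3 of 3 were above the limit of 0.518 CPM, against 1 of 3 siZEB1 libraries. Exons of TSTD2 on the opposite strand cover 45.01% of the exonic bases of TMOD1, and TSTD2 had 25.5 ± 5.27 CPM with siControl and 24.1 ± 2.05 CPM with siZEB1. The strand setting of the counting is not given in the sources used here. How many of the few TMOD1 reads came from TSTD2 therefore cannot be told.

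LMOD1, the leiomodin of smooth muscle, gave 6, 2 and 4 siControl reads and 4, 0 and 2 siZEB1 reads and did not pass the filter. A library in which no read was counted allows up to 3 reads, or 0.134 to 0.159 CPM in these libraries, counting error only. The mean levels of 0.193 ± 0.0971 and 0.105 ± 0.106 CPM are close to that limit, and no fold change is given. Among relatives outside the family list, TMOD4 had 13, 12 and 11 reads against 8, 8 and 0 (log2 fold change -1.02, SE 0.58, adjusted p = 0.175 by edgeR), and LMOD2 and LMOD3 had 0 to 6 reads in every library and were not tested. TMOD4 passed the filter through its siControl libraries alone.

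Of the 8 members, 7 passed the filter on low counts, 1 was called higher (TPM4) and 0 lower at an adjusted p under 0.05 in edgeR. Over all genes tested, 19% were called higher and 21.2% lower. Because the rise of TPM4 was what selected the family, nothing is read from this count.

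**Figure D2:**
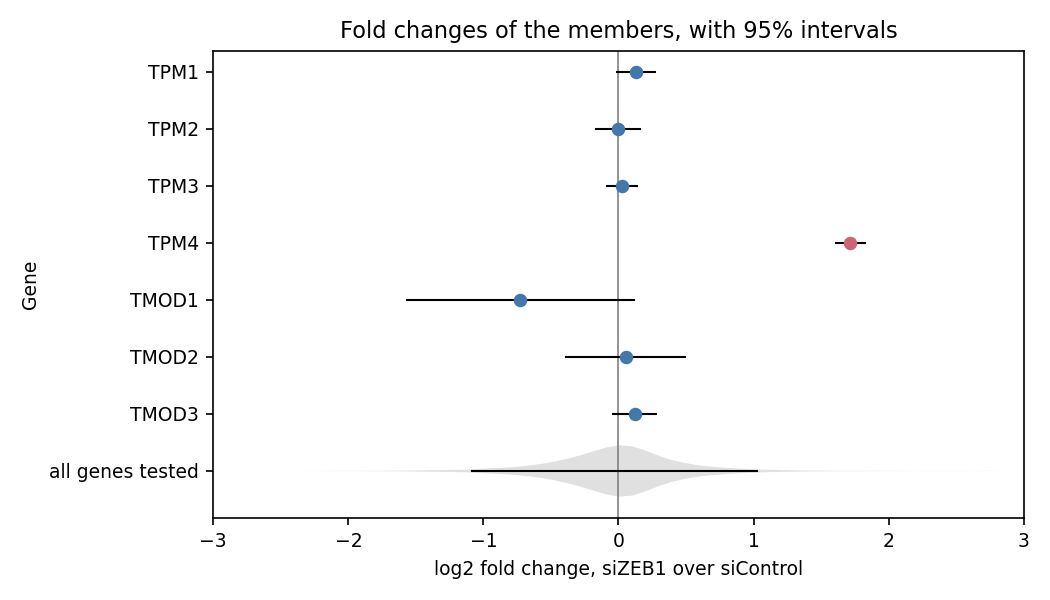
Log2 fold change of siZEB1 over siControl for the 7 members tested (points) with 95% intervals (lines), above the distribution of all 14996 genes tested, whose line spans the middle 95% (-1.08 to 1.03). The axis is limited to -3 to 3. TPM4 lies at 1.72, beyond that span, and the intervals of the other members include 0.

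Sequence shared with other genes bears on these counts. None of the 50-base stretches of the members' transcripts occurs in another member, so reads of that length belong to 1 member each. TPM4 shares 14.5% of its 50-base stretches with other genes, of which AC008894.3, annotated on the opposite strand, holds 7.08% and AC098614.1 holds 5.53%. AC008894.3 gave 48, 43 and 24 siControl reads and 26, 29 and 36 siZEB1 reads, under 2 CPM in either group. AC098614.1 was not found by symbol in the count data. TPM1 shares 19.96% of its stretches with other genes, mostly with its antisense gene TPM1-AS, which had 1 read over the 6 libraries. TPM3 shares 3.27%, of which AC243960.2, under 1 CPM in either group, holds 2.16%, and TPM2 shares none. The pseudogene TPM3P9 was called lower (180, 199 and 167 against 127, 100 and 156 reads, log2 fold change -0.37, SE 0.14, adjusted p = 0.0461 by edgeR) while TPM3 itself stood at 0.03. TPM3P9 holds no more of the TPM3 stretches than AC100861.1, which holds 0.101%. How reads that match several genes were counted is not given in the sources used here, so the values of TPM3P9 are uncertain.

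Levels of different genes were compared per kilobase of exonic length. With siControl, the order was TPM3 (65.3 ± 2.77 CPM per kilobase), TPM2 (41.9 ± 4.14), TPM4 (22.6 ± 0.152), TMOD3 (8.96 ± 0.776), TPM1 (5.04 ± 0.188), TMOD2 (0.201 ± 0.0411), TMOD1 (0.187 ± 0.0312) and LMOD1 (0.0485 ± 0.0245). The libraries of neighbouring genes in this order did not overlap except for TMOD2 and TMOD1. With siZEB1, TPM4 was first at 74.2 ± 0.850 CPM per kilobase, ahead of TPM3 at 66.5 ± 0.795 and TPM2 at 41.8 ± 3.18, and the order of the other genes was the same. The ranges of TPM4 (73.3 to 74.8) and TPM3 (65.7 to 67.3) did not overlap. The ratio of TPM4 to TPM3 went from 0.346 ± 0.0162 to 1.12 ± 0.00513.

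The length used matters for part of this order. Per kilobase of the mean coding transcript, TPM2 (126 ± 12.5) and TPM4 (121 ± 0.814) overlapped with siControl, and TPM1 (50.4 ± 1.88) was above TMOD3 (21.9 ± 1.90). TPM4 was again first with siZEB1, at 398 ± 4.56 CPM per kilobase. Which isoforms the cells used cannot be read from these counts, so the lengths are those of the annotation.

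The tropomyosin pool, the sum of the 4 genes per kilobase of exonic length, went from 135 ± 5.20 to 188 ± 4.61 CPM per kilobase, a ratio of 1.39. The summed level of TPM1, TPM2 and TPM3 was 112 ± 5.34 with siControl and 114 ± 3.82 with siZEB1, so the pool without TPM4 differed by less than its spread between libraries. The share of TPM4 was 16.7%, 17.6% and 16.0% in the siControl libraries and 39.5%, 38.9% and 40.1% in the siZEB1 libraries. The mean share went from 16.8% ± 0.759 to 39.5% ± 0.566, by 22.7 percentage points. TPM3 held 48.5% ± 1.51 with siControl and 35.4% ± 0.623 with siZEB1, TPM2 31.0% ± 2.10 and 22.2% ± 1.17, and TPM1 3.74% ± 0.258 and 2.93% ± 0.0296. The shares of TPM1, TPM2 and TPM3 were smaller with siZEB1 although their own levels were not lower beyond their spread.

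**Figure D3:**
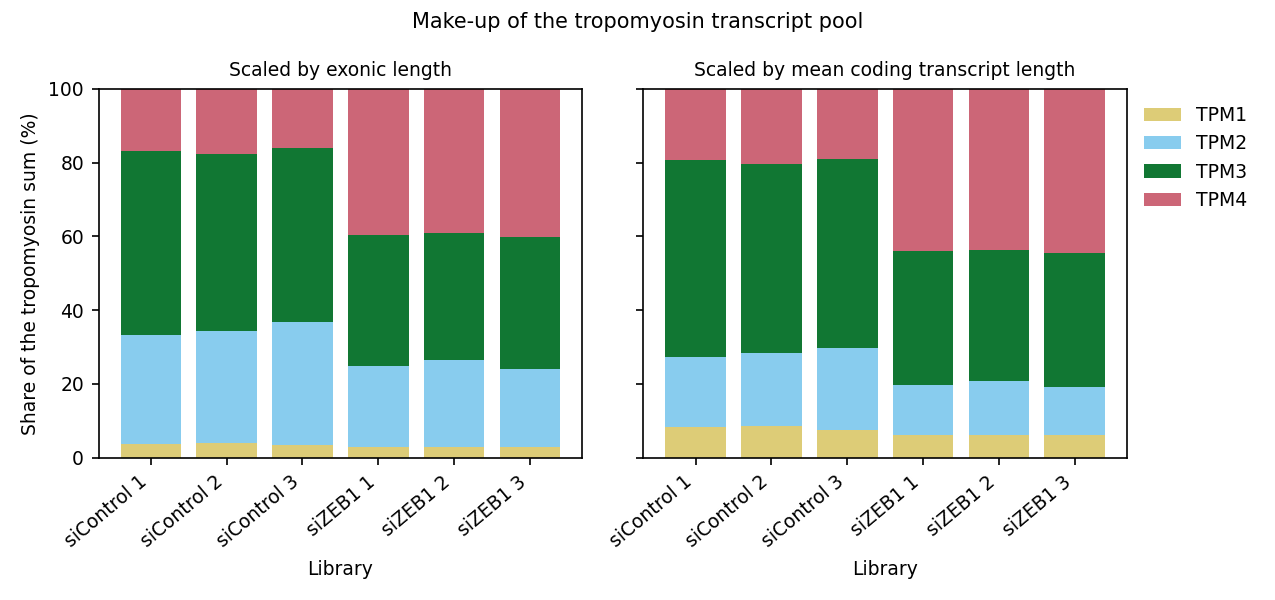
Share of TPM1, TPM2, TPM3 and TPM4 in the summed tropomyosin level (percent) in each of the 6 libraries, with levels per kilobase of exonic length on the left and of mean coding transcript length on the right. TPM4 fills 16.0% to 17.6% of the siControl bars and 38.9% to 40.1% of the siZEB1 bars on the left.

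Set against actin, the filament that tropomyosins cover, the proportion of the pool overlapped between the groups per kilobase, but not without length scaling. The summed level of ACTB and ACTG1, the cytoplasmic actins, went from 2568 ± 111 to 3403 ± 211 CPM per kilobase of exonic length, a ratio of 1.33. The tropomyosin pool was 5.47%, 5.11% and 5.19% of that actin level in the siControl libraries and 5.30%, 5.52% and 5.78% in the siZEB1 libraries. These ranges overlapped, with means of 5.25% ± 0.188 and 5.53% ± 0.238. The ranges also overlapped per kilobase of the mean coding transcript (7.71% to 8.35% and 8.19% to 8.98%). Without length scaling, the ranges were 10.8% to 11.8% and 11.95% to 13.1% and did not overlap. TPM4 alone went from 0.881% ± 0.0423 to 2.19% ± 0.114 of the actin level. Against the tropomodulins, whose summed level was 9.35 ± 0.826 and 10.1 ± 0.729 CPM per kilobase, the tropomyosin pool was 14.5 ± 1.55 times as high with siControl and 18.8 ± 1.75 times as high with siZEB1. The ranges of this ratio (13.2 to 16.2 and 16.8 to 20.1) did not overlap. These are ratios of transcript levels, and protein was not measured in these libraries.

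Among 9024 other genes with a mean of at least 10 CPM over the 6 libraries, those most like each member were found. They were taken by the Euclidean distance between log2(CPM + 0.5) values, each less its own siControl mean. For TPM4 these were NOLC1 at a distance of 0.097 (248 ± 7.61 to 842 ± 4.73 CPM), ZNF616 at 0.197 (4.61 ± 0.249 to 16.7 ± 1.09 CPM) and C6orf132 at 0.214 (11.03 ± 0.450 to 34.6 ± 1.04 CPM). For TPM1 they were OXCT1 (0.045), TBC1D15 (0.046) and SEC63 (0.051), for TPM2 NDUFS3 (0.061), RANBP1 (0.062) and AC116533.1 (0.070), for TPM3 PSMC6 (0.031), PPP1R14C (0.048) and EXOSC8 (0.051), and for TMOD3 CYBRD1 (0.058), WASL (0.065) and SLC17A5 (0.066). The values of the last 4 members hardly moved, and their distances were below 0.1. No gene list below supplied any of the 3 genes nearest to TPM4. Of these, ZNF616 reached a mean of 10 CPM only through its siZEB1 libraries. The distance to TPM4 rests on the rise that chose the family, so nothing is read from this.

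Genes of the actin filament and its regulators, and SRF with its coactivators and targets, were taken from 11 lists by role. Of their 114 genes, 97 were tested, 27 were higher with siZEB1, 28 were lower and 42 were not called (edgeR's quasi-likelihood test, adjusted over all 14996 genes). This is 56.7% called, against 40.2% of all genes tested. The lists were chosen with earlier results of these data known and were not matched to all genes by level. Nothing is read from this difference. In the 9 lists without SRF, its coactivators and its targets, 21 genes were higher and 20 lower of 82 tested, or 50% called. The median log2 fold change was 0.05 in all 11 lists and 0.07 in these 9, against -0.0055 over all genes tested.

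Both cytoplasmic actins rose with siZEB1. ACTB went from 5071 ± 294 to 7432 ± 493 CPM (log2 fold change 0.55, SE 0.05, adjusted p = 4.49e-07 by edgeR) and ACTG1 from 3374 ± 85.3 to 3865 ± 220 CPM (0.20, SE 0.05, adjusted p = 0.00402 by edgeR). ACTA2, smooth muscle actin, had group means under 1 CPM and was not called, so 2 of the 3 actins tested were higher and 0 lower. The cytoplasmic actins are near-identical and have many pseudogene copies, so their split is uncertain.

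Genes whose products sit on the filament with tropomyosin went both ways, with 2 higher, 2 lower and 3 not called of 7 tested (median log2 fold change -0.07). CNN2, a calponin of non-muscle cells, rose from 562 ± 21.5 to 649 ± 32.9 CPM (0.21, adjusted p = 0.0059 by edgeR), and TAGLN, transgelin, rose from 21.3 ± 0.317 to 26.5 ± 1.05 CPM (0.31, adjusted p = 0.00437 by edgeR). TNNC1, a troponin C, fell from 42.7 ± 2.72 to 30.3 ± 2.31 CPM (-0.49, adjusted p = 0.000125 by edgeR), and CNN1, smooth muscle calponin, fell from 0.869 ± 0.141 to 0.297 ± 0.0321 CPM (-1.53, adjusted p = 0.00501 by edgeR). CNN1 had 16, 23 and 16 reads against 6, 5 and 6 and passed the filter through its siControl libraries alone. With at least 10 counts required in every sample it was not tested, and 1 gene of the list was lower. CALD1, caldesmon, a tropomyosin-binding inhibitor of actomyosin, was at 157 ± 12.5 and 150 ± 9.67 CPM (-0.07, adjusted p = 0.464 by edgeR).

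At the fast-growing (barbed) end, 1 of 12 capping genes tested was higher, 3 were lower and the median was 0.05, with 3 higher without siControl replicate 1. All 3 subunit genes of capping protein, CAPZA1, CAPZA2 and CAPZB, were among the 8 not called, with log2 fold changes of 0.06 to 0.14. The called genes were members of the EPS8 family and a twinfilin. EPS8L1 rose (log2 fold change 0.52, adjusted p = 0.0007 by edgeR), whereas EPS8 fell from 7.93 ± 0.998 to 4.202 ± 0.315 CPM (-0.92, adjusted p = 6.36e-05 by edgeR), EPS8L3 fell (-0.72, adjusted p = 4.35e-06 by edgeR) and TWF2 fell (-0.39, adjusted p = 0.00125 by edgeR).

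Of 15 filament severing and turnover genes tested, 6 were higher and 3 lower (median 0.07). CFL1, cofilin, rose from 616 ± 43.0 to 749 ± 62.4 CPM (0.28, adjusted p = 0.00242 by edgeR). WDR1, which helps cofilin to take filaments apart, rose from 211 ± 7.54 to 309 ± 9.69 CPM (0.55, adjusted p = 7.1e-07 by edgeR), and TESK1, a cofilin kinase, rose (0.56, adjusted p = 0.00011 by edgeR). GSN, gelsolin, fell from 119 ± 6.03 to 85.7 ± 5.61 CPM (-0.48, adjusted p = 3.25e-05 by edgeR), and CAP2 fell (-0.51, adjusted p = 0.000312 by edgeR).

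Nonmuscle myosin II, the motor whose access to filaments depends on tropomyosin isoforms, had 3 genes higher, 1 lower and 7 not called of 11 tested (median 0.10). MYH9, its main heavy chain, rose from 784 ± 26.9 to 976 ± 24.2 CPM (0.32, adjusted p = 8.03e-05 by edgeR). MYL6, a light chain, rose (0.37, adjusted p = 0.00312 by edgeR), whereas MYH14, another heavy chain, fell from 8.82 ± 1.23 to 5.71 ± 0.872 CPM (-0.62, adjusted p = 0.00223 by edgeR). MYH10, the third heavy chain, was at 128 ± 6.56 and 118 ± 9.48 CPM and was not called.

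Among filament nucleators, 1 of 9 genes of the Arp2/3 complex was lower and 0 were higher (median 0.03). That gene, ACTR2, fell from 461 ± 55.4 to 343 ± 24.8 CPM (-0.43, adjusted p = 0.000251 by edgeR). The formins, which build unbranched filaments, had 4 higher and 3 lower of 11 tested (median 0.09). FHOD1 rose (0.69, adjusted p = 2.58e-06 by edgeR) and DIAPH1 rose from 319 ± 16.9 to 473 ± 12.9 CPM (0.57, adjusted p = 5.02e-07 by edgeR), whereas FMNL3 (-0.62, adjusted p = 2.05e-05 by edgeR) and FMNL2 (-0.56, adjusted p = 0.000145 by edgeR) fell.

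The crosslinkers had the lowest median of the actin lists with more than 1 gene tested, -0.21, with 3 higher and 7 lower of 13 tested. FLNC, a filamin, fell from 142 ± 7.07 to 91.0 ± 2.48 CPM (-0.65, adjusted p = 4.6e-07 by edgeR), and SPTBN1, a spectrin, fell from 353 ± 26.7 to 239 ± 11.2 CPM (-0.56, adjusted p = 2.2e-06 by edgeR). VIL1, villin, which bundles filaments in the microvilli of gut epithelium, rose from 4.07 ± 0.503 to 20.6 ± 1.49 CPM (2.34, adjusted p = 1.69e-10 by edgeR), a larger log2 fold change than that of TPM4, and LCP1, a plastin, rose at a level of 1 to 3 CPM (0.75, adjusted p = 0.0197 by edgeR). VIL1 was also on the list of colorectal epithelial markers, of which 3 of 7 tested were higher and 1 lower. The others were EPCAM (54.6 ± 2.29 to 453 ± 14.2 CPM), KRT19 (72.2 ± 1.19 to 223 ± 17.1 CPM) and, lower, CDX2 (102 ± 7.07 to 41.7 ± 2.66 CPM).

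SRF and its coactivators drive many actin genes through CArG boxes. SRF itself was at 93.3 ± 3.07 and 96.4 ± 8.31 CPM (0.05, adjusted p = 0.621 by edgeR), whereas MRTFB (0.41, adjusted p = 0.00499 by edgeR) and MRTFA (0.30, adjusted p = 0.00791 by edgeR) rose. Of 22 SRF and MRTF target genes tested, 9 were higher, 10 lower and 3 not called, with a median of -0.01. TUFT1 rose from 14.6 ± 0.348 to 37.7 ± 2.76 CPM (1.37, adjusted p = 2.09e-09 by edgeR) and CCN1, a matricellular protein, rose from 147 ± 2.52 to 237 ± 2.36 CPM (0.69, adjusted p = 4.13e-08 by edgeR). TGFBI fell from 17.3 ± 1.15 to 7.29 ± 0.193 CPM (-1.24, adjusted p = 6.27e-08 by edgeR), and CNN1, at the few reads given above, is also on this list. Some of these targets are also on the lists above.

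**Figure D4:**
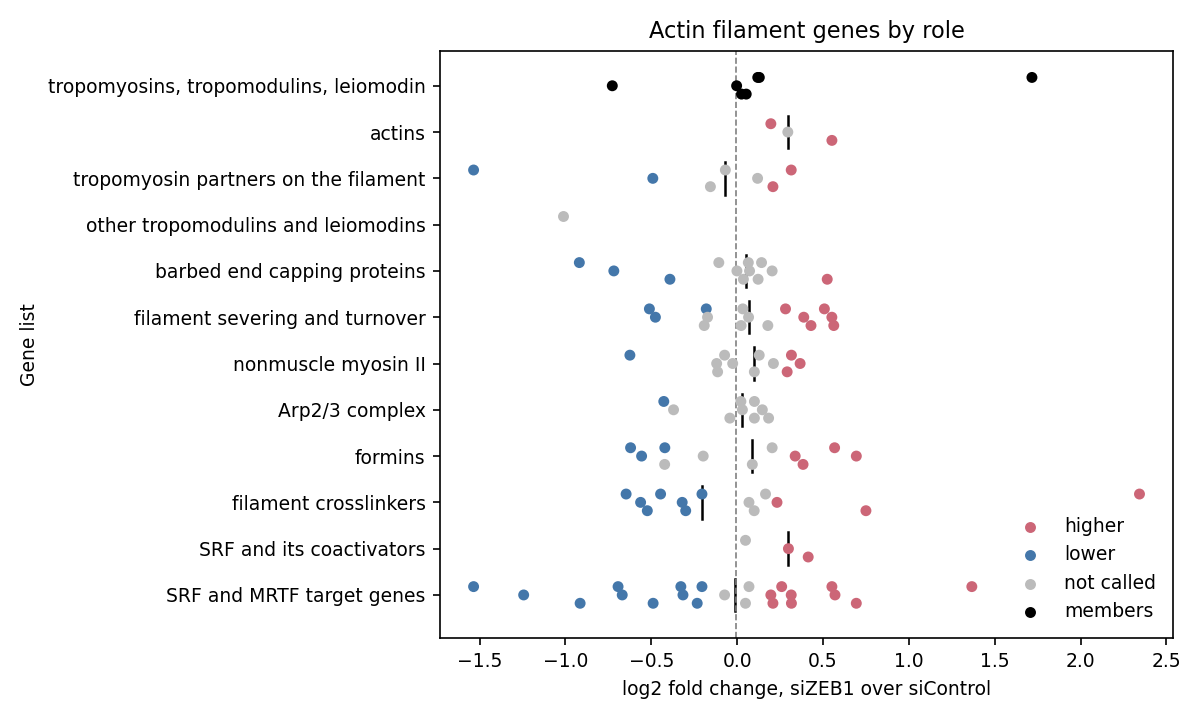
Log2 fold change of siZEB1 over siControl for the members (black) and for each tested gene of the 11 lists, coloured by its call in edgeR at an adjusted p under 0.05. Short vertical lines are list medians and the dashed line is the median of all genes tested; TPM4 lies at 1.72, and of the list genes VIL1 lies above it, at 2.34.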

How the data were processed

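The authors sequenced total RNA from 6 SW480 cultures and deposited whole-number read counts per Ensembl gene for each. The submitters' processing notes name Trimmomatic, HISAT2, SAMtools, featureCounts and hg38, while versions, annotation, strand setting and the handling of multiply matching reads are not given in the sources used here. Members and gene lists were chosen with earlier results of these data known. Counts were filtered with filterByExpr (minimum count of 10), scaled by TMM and tested, two-sided, with edgeR 4.0.16 (glmQLFit and glmQLFTest, R 4.3.3) without covariates, with Benjamini-Hochberg adjustment over 14996 genes; the script was tested on simulated data. SE is the log2 fold change over the root of the F statistic. Replicates differed by 2.27 to 9.72 times sampling noise (chi-square over degrees of freedom), so none is a copy. The genes named were the members, ZEB1, ACTB, ACTG1, CALD1, MYH9, CFL1, SRF, up to 2 called genes with the largest rise and 2 with the largest fall per list, and the 3 genes nearest in pattern to each member of at least 10 CPM. KRT8, KRT18, KRT19, LGALS4, CDH17, CDX1, CAPZA1, CAPZA2, CAPZB, ACTA2, MYH10, TWF2, SYK and relatives of the members were named after their values, or for CDX1 its absence, were seen. Lengths are from GENCODE 29.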

Additional observations from a re-analysis of the deposited data

How the results depend on the processing

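The alternatives run were DESeq2 1.42.0, median-of-ratios or plain library-size scaling, no filter, 10 counts in every sample, the replicate block, each library left out in turn, and the rule of the study's methods (fold change above 1.5 and unadjusted p under 0.001). The choice of the family fixed the call of TPM4, and its log2 fold change ranged from 1.71 to 1.73, that of TPM1 from 0.10 to 0.15 and that of TMOD3 from 0.06 to 0.19. TPM2, TPM3 and TMOD2 changed sign under at least 1 alternative, within -0.06 to 0.08, -0.01 to 0.05 and -0.11 to 0.19, and TMOD1 ranged from -1.02 to -0.57. The rise of the TPM4 share was 24.4 percentage points with mean coding transcript length and 24.9 without length scaling, where TPM4 ranked 2 and not 3 with siControl. Leaving out each library in turn gave 22.4 to 23.1 points, 2305 to 2928 genes higher and 2637 to 3311 lower, and 25 to 30 actin genes higher and 27 to 29 lower. The rule of the study's methods called 678 genes higher and 1004 lower, and 4 and 9 of the actin genes. Same-numbered samples did not deviate together (r = -0.08, -0.12 and -0.28), and with the replicate block 2289 genes were higher and 2679 lower, with 26 and 26 of the actin genes. With each library left out in turn, SRF ranged from -0.013 (adjusted p = 0.923, without siZEB1 replicate 1) to 0.11. Without siZEB1 replicate 1, CNN2 lost its call (0.18, adjusted p = 0.0513), 1 and not 2 of the tropomyosin partners was higher and 1 and not 0 of the Arp2/3 genes. Of the barbed-end capping genes, 3 were higher without siControl replicate 1, and 2 without siControl replicate 3, siZEB1 replicate 2 or the filter, against 1. LCP1 lost its call without siControl replicate 3 (0.56, adjusted p = 0.079) or siZEB1 replicate 2 (0.70, adjusted p = 0.0634), all by edgeR. The few reads of TMOD1, TMOD2 and LMOD1 limit what their values can show.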
